A study of Mus musculus with 18 samples.

Results

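Homozygous mutant mouse embryonic fibroblasts that had received TGFb1 for 24 h were compared with untreated homozygous cells. These are 4 of the 18 arrays of the series, 2 in each group, taken by their titles, and all probe sets with a single gene symbol were read. The cells came from E12.5 to E14.5 fetuses from which the head, the liver and blood clots had been taken away. Their mutant is constitutively active according to the design text, which names it TGFb1, whereas the series title puts a point mutation in TGFBR1, so it is called only the mutant here. The groups compared were homozygous cells with 5 ng/mL TGFb1 for 24 h and homozygous cells left untreated. The design text speaks of vehicle for the untreated cells and gives them no duration. Homozygous cells with the same dose for 4 h served as a further comparison, as did heterozygous and wt cells with TGFb1 for 24 h and untreated. All groups grew in medium with 10% serum. Fibroblasts prepared from whole trunks are a mixed mesenchymal culture, and the labels do not state if both arrays of a group hold different cultures or litters. The p-values therefore cover only the spread between these arrays.

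TGFb1 is a secreted ligand that brings together the type II receptor TGFBR2 and the type I receptor TGFBR1. The activated type I receptor phosphorylates SMAD2 and SMAD3, which enter the nucleus with SMAD4 and change transcription, while inhibitors such as SMAD7 and SKIL limit the signal. In fibroblasts the pathway is known for matrix production, contractility, secretion of other growth factors and restraint of cell division.

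Values are log2 of the deposited GCRMA intensity, and genes were tested with limma, a linear model with a moderated spread per gene, here pooled over all 18 arrays. A value with ± is a log2 fold change, TGFb 24 h minus untreated unless another pair is named, and a value without it is a level or a median. The error is the standard error of that fit for 2 arrays against 2, and "called" means a Benjamini-Hochberg adjusted p under 0.05 over all 10078 genes tested. A level under log2 5 counts as dim. Where both arrays of the dimmer group were dim the change is printed as a bound, from log2 5 to the other group's mean. In the 4 arrays 39.94 to 40.4% of probe sets lay above log2 5. The 2 arrays of a group correlated at r = 0.9934 in TGFb 24 h cells and 0.9932 in untreated cells over genes, with a root mean square SD of 0.197 log2 in TGFb 24 h cells and 0.192 log2 in untreated cells. The wt pairs varied more, by 0.321 to 0.387 log2, and this enters the pooled errors. Xist, the RNA of the inactive X chromosome, was high in replicate 1 and low in replicate 2 of both groups, at 11.34 and 2.21 log2 in TGFb 24 h cells and 11.88 and 1.58 log2 in untreated cells, so the 2 arrays of each group are not repeats of one RNA. Of 11 measured fibroblast markers 0 were called, and their intensities summed to 291600 and 304100 in TGFb 24 h cells and to 306500 and 312400 in untreated cells. Markers of erythroid cells (5 of 5), hepatocytes (6 of 6) and endothelium (8 of 10, among them Pecam1, Cdh5 and Vwf) were dim on all 4 arrays. Macrophage and myeloid markers were present, with all 16 measured and a summed intensity of 11600 and 12100 in TGFb 24 h cells and 12950 and 14020 in untreated cells, and 1 of them, Mrc1, was called lower. Other lists held measured markers too. Of 9 smooth muscle and pericyte markers 8 were measured and 1 was called higher. Skeletal muscle (8 of 14), neural and glial (5 of 11), epithelial (5 of 10) and chondrocyte (2 of 10) markers were measured with 0 called. Col2a1, a chondrocyte marker, read 11.04 and 11.36 log2 in TGFb 24 h cells, against 11.43 and 11.45 in untreated cells. The 2 measured endothelial markers, Egfl7 and Emcn, were not called.

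After 24 h of TGFb 867 of 10078 genes were called (8.6%), of which 312 were higher (3.1%) and 555 lower (5.51%). By more than 2-fold 108 rose and 227 fell. The median over all genes was -0.02 log2. The arrays of the groups did not overlap for 6540 genes (64.9%). Fewer genes were called whichever array was left out. Such a fit leaves 1 array in a group, so its standard error is larger and a call can be lost although the change hardly moves. With an array left out Ltbp2 stayed between 0.96 and 1.05 log2, while Lmcd1 ranged from -3.92 to -2.15 log2. A call lost in this way does not by itself show that a result rests on the array left out. The number called was 2037 when only these 4 arrays were fitted and 2245 with the 3 homozygous groups, whose spread is smaller. The plot of gene lists gives the changes of 27 groups of genes: 30 of 30 measured mitosis genes were called lower, interferon-stimulated genes had the lowest median, and secreted growth factors had the highest. Since arrays measure RNA of the whole culture, fewer cells of a type and less RNA per cell cannot be told apart in any of these results.

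**Figure D1:**
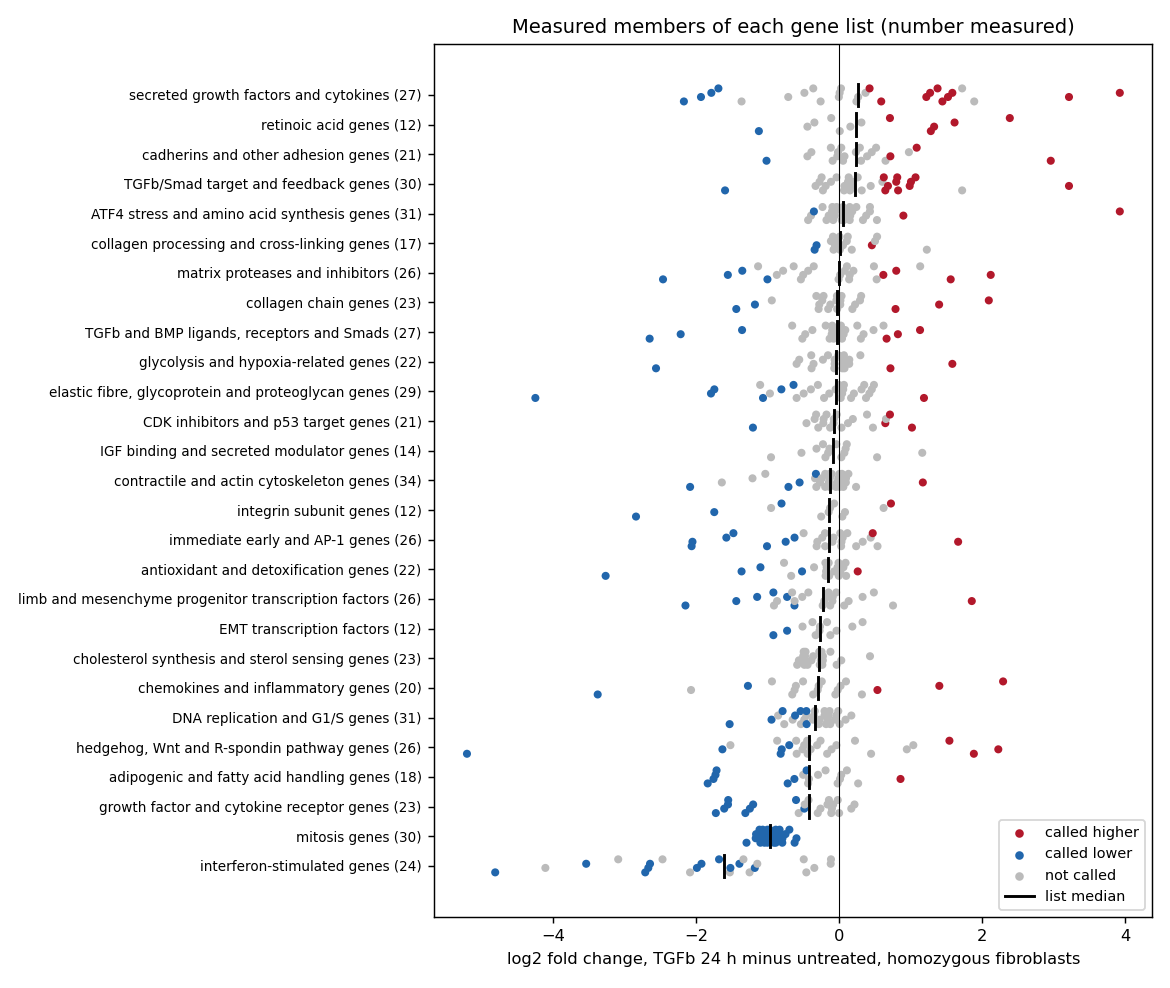
Log2 fold change (TGFb 24 h minus untreated, homozygous fibroblasts) of every measured member of 27 gene lists, lists ordered by their median. Each point is a gene, red where called higher, blue where called lower and grey where not called, and the bar is the list's median. All 30 mitosis genes are blue and lie between -1.30 and -0.60, while most other lists hold points on both sides of 0.

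Genes of the TGFb family itself changed in both directions. Of 27 measured ligands, receptors and Smads 3 were called higher and 3 lower, against 3.1% and 5.51% of all genes. The same number was called whichever array was left out. Among the ligands, Tgfb1 read 11.46 and 11.56 log2 in TGFb 24 h cells, against 10.42 and 10.34 in untreated cells. The arrays of a group lay close together and the groups apart, and Tgfb1 was higher by 1.13 ± 0.10 log2 (2.19-fold higher, adjusted p = 2.91e-05). Inhba, which encodes a subunit of activin A, read 13.22 and 13.31 log2 in TGFb 24 h cells, against 12.39 and 12.499 in untreated cells (0.82 ± 0.10 log2, adjusted p = 0.000278). Inhbb, another activin subunit gene, went the opposite way and read 7.32 and 8.01 log2 in TGFb 24 h cells, against 9.58 and 10.18 in untreated cells. Its change was -2.22 ± 0.36 log2 (adjusted p = 0.00198). Bmp4, a BMP ligand, was lower at 9.88 and 9.62 log2 in TGFb 24 h cells, against 11.06 and 11.16 in untreated cells (-1.36 ± 0.17 log2, adjusted p = 0.000278). Rises and falls beyond the error of the fit thus stood side by side among the ligands.

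Among the receptors, Tgfbr3, the co-receptor betaglycan that presents ligands to the signalling receptors, read 5.37 and 5.36 log2 in TGFb 24 h cells, against 7.96 and 8.08 in untreated cells. It fell by 2.65 log2 (SE 0.44, 6.29-fold lower, adjusted p = 0.00198), among the 15 largest falls. Acvr1, a type I receptor of activins and BMPs, was higher by 0.66 ± 0.07 log2 (adjusted p = 9.06e-05). Tgfbr1, the type I TGFb receptor, read 10.55 and 10.45 log2 in TGFb 24 h cells, against 10.49 and 10.39 in untreated cells, a difference of 0.06 ± 0.10 log2 (adjusted p = 0.83) that did not pass. Its level does not bear on the mutation. The type II receptor gene Tgfbr2 stood at -0.10 ± 0.14 log2, Smad2 at -0.14 ± 0.12, Smad3 at -0.19 ± 0.11 and the shared partner Smad4 at -0.03 ± 0.10 log2, none of them called.

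Of all genes 3.1% were called higher and 5.51% lower, against 10 and 1 of 30 targets and feedback genes of the pathway (median 0.22 log2). Without 1 array the number higher was 7 (TGFb replicate 1), 5 (TGFb replicate 2), 5 (untreated replicate 1) and 7 (untreated replicate 2). Skil, a corepressor that binds Smads, read 12.74 and 12.77 log2 in TGFb 24 h cells, against 12.15 and 12.12 in untreated cells. These small and even values gave 0.62 ± 0.09 log2 (adjusted p = 0.000856). Pmepa1, a membrane protein that withholds Smads from the receptor, was higher by 0.68 ± 0.08 log2 (adjusted p = 0.00026), and Fstl3, a secreted antagonist of activin, by 0.99 ± 0.14 log2 (adjusted p = 0.000723). Bhlhe40, a transcriptional repressor of the clock and of differentiation, was higher by 1.07 ± 0.11 log2 (adjusted p = 9.06e-05). Smad7, the inhibitory Smad, read 11.42 and 11.31 log2 in TGFb 24 h cells, against 10.81 and 10.71 in untreated cells. Its groups did not overlap, as for 64.9% of all genes, and 0.60 ± 0.21 log2 did not pass (adjusted p = 0.111). Smad7 was called when the 3 homozygous groups were fitted alone (adjusted p = 0.00456). Ltbp2, a microfibril protein, was called at 1.003 ± 0.26 log2, and Cdkn2b, Timp1, Spsb1 and Runx1 between 0.64 and 0.82 log2. With an array left out those calls did not all hold: adjusted p reached 0.168 for Ltbp2, 0.0699 for Cdkn2b, 0.0719 for Timp1, 0.0997 for Spsb1 and 0.133 for Runx1. Tgfbi, a matrix protein named for its induction by TGFb in other cells, read 9.49 and 9.97 log2 in TGFb 24 h cells, against 11.20 and 11.45 in untreated cells and was called lower (adjusted p = 0.0118, and up to 0.128 with an array left out). Id1, an inhibitor of basic helix-loop-helix factors, did not pass (-0.25 ± 0.34 log2).

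The 15 largest rises were led by secreted and membrane proteins. Il11, an IL-6 family cytokine that fibroblasts make under TGFb, read 10.11 and 10.16 log2 in TGFb 24 h cells, against 7.08 and 6.76 in untreated cells, a rise of 3.21 ± 0.28 log2 (9.28-fold higher, adjusted p = 2.37e-05). Fgf21, a secreted metabolic hormone, read 7.90 and 8.23 log2 in TGFb 24 h cells, against 4.23 and 4.04 in untreated cells. Both untreated arrays were dim, so its rise was at least 8.36-fold (adjusted p = 6.95e-05). Likewise Olfm2, a secreted olfactomedin protein, read 8.08 and 8.21 log2 in TGFb 24 h cells, against 4.23 and 4.63 in untreated cells and was at least 8.84-fold higher. Cdh6, a cadherin, read 9.21 and 9.30 log2 in TGFb 24 h cells, against 6.16 and 6.43 in untreated cells, an increase of 2.96 ± 0.29 log2 (7.77-fold higher). Lce1f, a gene of the cornified envelope of skin, was higher by 2.69 ± 0.20 log2 in the brighter of its 2 probe sets and by 0.10 log2 in the other. Tfpi2, a secreted serine protease inhibitor, was higher by 2.25 ± 0.11 log2 and Pcsk5, a proprotein convertase, by 2.13 ± 0.21 log2. Tfpi2 had the smallest adjusted p of all genes tested (4.59e-07), with 12.75 and 12.74 log2 in TGFb 24 h cells and 10.50 and 10.49 log2 in untreated cells. Cnr1, the cannabinoid receptor, was at least 5.07-fold higher and the efflux transporter Abcb1a at least 4.68-fold. Cd40, a receptor of the TNF receptor family, was higher by 2.07 ± 0.28 log2 and Srpx2, a secreted sushi-repeat protein, by 2.06 ± 0.31 log2. Of these 15 genes 14 stayed called whichever array was left out. Aldh1a3 did not, and is given with the retinoic acid genes.

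**Figure D2:**
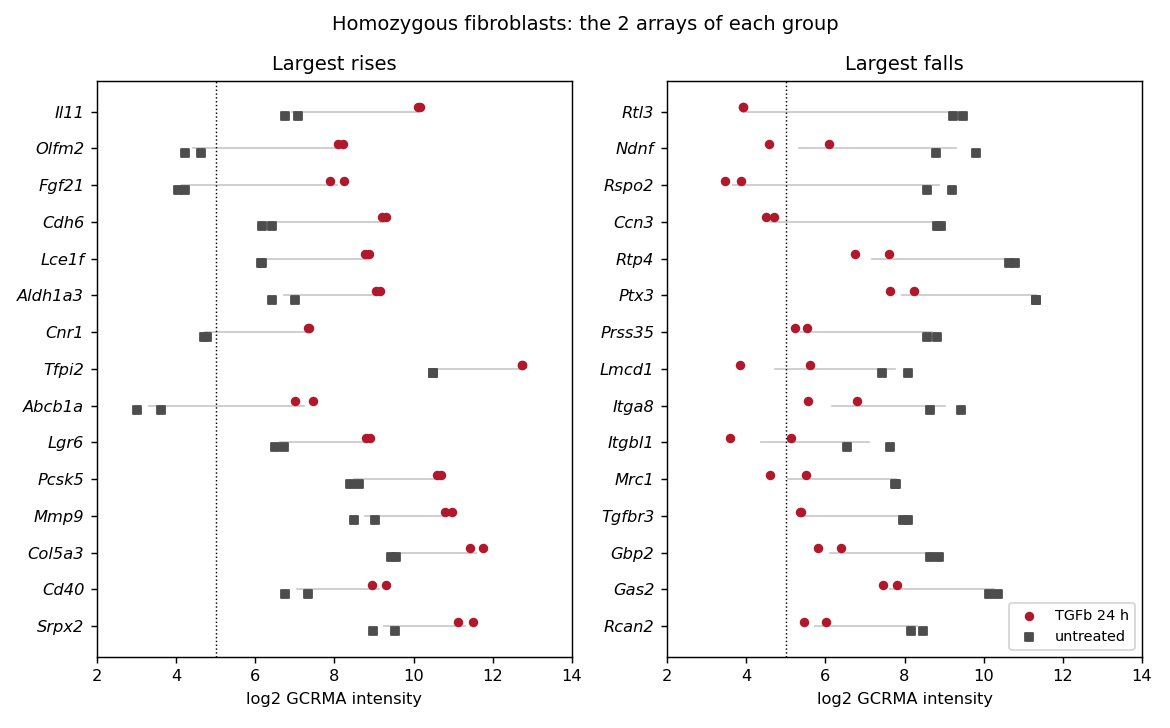
Log2 GCRMA intensity of the 15 largest rises (left) and the 15 largest falls (right) in homozygous fibroblasts, with both TGFb 24 h arrays as circles, both untreated arrays as squares and a line between the group means. Circles and squares of a gene never overlap, which the choice of genes required. The dotted line marks log2 5, under which both arrays of a group make the change a bound.

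The 15 largest falls included secreted regulators of growth. Rtl3, a gene derived from a retrotransposon, read 3.92 and 3.91 log2 in TGFb 24 h cells, against 9.23 and 9.47 in untreated cells and was at least 20.4-fold lower (adjusted p = 0.000931). Rspo2, a secreted amplifier of Wnt signalling, read 3.47 and 3.86 log2 in TGFb 24 h cells, against 8.56 and 9.19 in untreated cells, at least 14.7-fold lower (adjusted p = 2.82e-05). Ccn3, a matricellular protein related to Ccn2, read 4.50 and 4.71 log2 in TGFb 24 h cells, against 8.91 and 8.81 in untreated cells and was at least 14.51-fold lower. Ptx3, a secreted pattern recognition protein, read 8.24 and 7.63 log2 in TGFb 24 h cells, against 11.32 and 11.32 in untreated cells. It was 10.4-fold lower, with -3.38 ± 0.22 log2 and adjusted p = 5.59e-06. Ndnf, a secreted neurotrophic factor, read 4.58 and 6.08 log2 in TGFb 24 h cells, against 8.78 and 9.80 in untreated cells, so 1 of its treated arrays was dim and the size of its fall is uncertain. The growth arrest gene Gas2 changed by -2.61 ± 0.22 log2, the calcineurin regulator Rcan2 by -2.60 ± 0.41 log2 and Prss35, a secreted protein of the serine protease family, by -3.31 ± 0.45 log2. Of the 15 falls 11 stayed called whichever array was left out. The others were Rtp4 (adjusted p up to 0.151), Lmcd1 (up to 0.258), Itgbl1 (up to 0.102) and Mrc1 (up to 0.178). Mrc1, the mannose receptor of macrophages, read 4.61 and 5.50 log2 in TGFb 24 h cells, against 7.77 and 7.78 in untreated cells. The summed level of the 16 macrophage markers was lower as well, as given above, but 15 of them were not called. Their changes ran from -2.72 to 0.31 log2 (median -0.31), and the part of macrophages in the fall of Mrc1 was not tested.

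Genes of secreted growth factors and cytokines were called higher in 10 of 27 cases and lower in 4 (median 0.26 log2), against 3.1% and 5.51% of all genes. Leaving out an array gave 8 to 9 higher and 3 lower. Vegfa, the main angiogenic VEGF, read 11.37 and 11.25 log2 in TGFb 24 h cells, against 9.72 and 9.73 in untreated cells, a rise of 1.58 ± 0.13 log2 (adjusted p = 1.56e-05). Vegfc, a lymphangiogenic VEGF, read 11.47 and 11.37 log2 in TGFb 24 h cells, against 9.99 and 9.81 in untreated cells (1.52 ± 0.13 log2, adjusted p = 2.79e-05). Vegfd, a relative of Vegfc, read 3.27 and 2.86 log2 in TGFb 24 h cells, against 5.01 and 5.47 in untreated cells and was at least 1.18-fold lower (adjusted p = 0.00373). The VEGF genes thus moved in opposite directions in the same cells. However, Vegfd lay near the dim level even untreated, and its 3 probe sets ranged from -2.17 to -0.39 log2. Hbegf, a membrane-anchored EGF receptor ligand, read 13.54 and 13.53 log2 in TGFb 24 h cells, against 12.11 and 12.06 in untreated cells (1.44 ± 0.11 log2, adjusted p = 1.3e-05), and Nrg1, a ligand of ERBB receptors, was higher by 1.22 ± 0.20 log2. Fgf2 was higher by 1.27 ± 0.19 log2. Fgf7, a fibroblast product that acts on epithelium, read 9.24 and 9.204 log2 in TGFb 24 h cells, against 10.98 and 11.04 in untreated cells, a change of -1.79 ± 0.18 log2 (adjusted p = 6.25e-05). Ptn, a heparin-binding growth factor, was lower at 11.62 and 11.82 log2 in TGFb 24 h cells, against 13.74 and 13.57 in untreated cells (-1.94 ± 0.18 log2). Hgf, another fibroblast factor for epithelium, was called lower by at least 1.57-fold, but its adjusted p reached 0.237 with an array left out. The PDGF genes Pdgfa and Pdgfc were higher by 0.42 ± 0.11 and 0.59 ± 0.11 log2, with adjusted p up to 0.228 and 0.0645 when an array was left out.

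Of 23 measured receptors of growth factors and cytokines 9 were called lower and 0 higher, with a median of -0.43 log2, against 5.51% of all genes called lower and 3.1% higher, and the other 14 were not called. Without an array, the number called lower was 5 (TGFb replicate 1), 4 (TGFb replicate 2), 4 (untreated replicate 1) and 5 (untreated replicate 2). Receptors of the IL-6 family were among the 9. Il6st, the shared signalling chain gp130, read 10.39 and 10.48 log2 in TGFb 24 h cells, against 11.61 and 11.66 in untreated cells (-1.21 ± 0.23 log2, adjusted p = 0.00468). Lifr, the LIF receptor, read 6.04 and 6.52 log2 in TGFb 24 h cells, against 7.93 and 7.74 in untreated cells (-1.55 ± 0.22 log2, adjusted p = 0.000676), and Osmr, the oncostatin M receptor, 10.37 and 10.57 log2 in TGFb 24 h cells, against 11.71 and 11.87 in untreated cells (-1.31 ± 0.19 log2, adjusted p = 0.000997). All 3 were lower on every treated array than on any untreated array, while the groups did not overlap for 64.9% of all genes. Ligands of the same receptors were higher: besides Il11, Lif read 10.07 and 10.33 log2 in TGFb 24 h cells, against 8.83 and 8.82 in untreated cells, 1.38 ± 0.19 log2 higher (adjusted p = 0.000718). Il6 stood at 1.89 ± 0.60 log2 and did not pass (adjusted p = 0.0736). Fgfr2, a receptor for Fgf7, was called lower (-1.61 ± 0.23 log2, adjusted p = 0.000835). Met, the HGF receptor, Ror1, a Wnt receptor, Pdgfra, Egfr and Igf1r were called lower by 0.49 to 1.73 log2, but with an array left out adjusted p reached 0.118, 0.178, 0.179, 0.08002 and 0.103 in that order. The brightest of 4 Egfr probe sets gave the value used, and the others ranged up to 0.12 log2.

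Chemokine and inflammatory genes were called higher in 3 and lower in 2 of 20 cases, against 3.1% and 5.51% of all genes. Tnfaip3, which restrains NF-kB signalling, read 9.197 and 9.29 log2 in TGFb 24 h cells, against 7.69 and 7.99 in untreated cells (1.40 ± 0.20 log2, adjusted p = 0.000768). Il1r1, the IL-1 receptor, read 7.55 and 6.99 log2 in TGFb 24 h cells, against 8.55 and 8.55 in untreated cells and was lower by 1.28 log2 (SE 0.23, adjusted p = 0.00319). Ptgs2, the inducible cyclooxygenase, was higher by 0.53 ± 0.11 log2 (adjusted p up to 0.0774 with an array left out). The chemokine Ccl17 was dim on both untreated arrays and called higher by at least 1.2-fold, with adjusted p up to 0.422 when an array was left out.

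The main fibrillar collagen genes were at high levels and did not pass the test. Col1a1, a chain of type I collagen, read 15.52 and 15.63 log2 in TGFb 24 h cells, against 15.60 and 15.62 in untreated cells (-0.03 ± 0.11 log2, adjusted p = 0.94), and fibronectin, Fn1, stood at 0.02 ± 0.06 log2. Of 23 collagen chain genes 3 were called higher and 2 lower, against 3.1% and 5.51% of all genes. Col5a3, a chain of type V collagen, read 11.42 and 11.75 log2 in TGFb 24 h cells, against 9.55 and 9.43 in untreated cells (2.09 ± 0.31 log2, 4.26-fold higher, adjusted p = 0.00106). Col7a1, the collagen of anchoring fibrils, read 10.92 and 11.32 log2 in TGFb 24 h cells, against 9.72 and 9.72 in untreated cells (1.40 ± 0.29 log2, adjusted p = 0.00839). Of the chains of type VI collagen, Col6a2 read 9.55 and 9.75 log2 in TGFb 24 h cells, against 11.04 and 11.14 in untreated cells (-1.44 ± 0.25 log2, adjusted p = 0.00297) and Col6a1 10.73 and 11.02 log2 in TGFb 24 h cells, against 12.10 and 12.01 in untreated cells (-1.18 ± 0.30 log2). Col27a1 was called higher by 0.79 ± 0.21 log2. Col5a3 and Col6a2 stayed called whichever array was left out, while adjusted p reached 0.0943 for Col7a1, 0.189 for Col6a1 and 0.252 for Col27a1. Of 17 genes of collagen processing and cross-linking 14 were not called. The hydroxylase gene P3h1 was called higher (0.46 log2) and its partner Crtap (-0.35) and the procollagen protease enhancer Pcolce (-0.32) lower. Crtap reached adjusted p = 0.225 and P3h1 0.221 with an array left out. Pcolce2, a relative of Pcolce, had the highest value of the list, 10.81 and 10.75 log2 in TGFb 24 h cells, against 9.79 and 9.32 in untreated cells, and did not pass (1.23 ± 0.36 log2, adjusted p = 0.0538).

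Elastic fibre and glycoprotein genes were called lower in 6 of 29 cases and higher in 1, and without 1 array lower in 5 to 6. The shares over all genes were 5.51% lower and 3.1% higher. Fbn2, fetal fibrillin, read 9.42 and 9.56 log2 in TGFb 24 h cells, against 11.19 and 11.29 in untreated cells (-1.75 ± 0.19 log2, adjusted p = 0.000109). Fbln5, which helps assemble elastic fibres, read 12.72 and 12.72 log2 in TGFb 24 h cells, against 13.76 and 13.81 in untreated cells (-1.07 ± 0.18 log2, adjusted p = 0.00261). Ccn5, like Ccn3 a matricellular protein, was lower, at -1.80 ± 0.22 log2 (adjusted p = 0.000266), Ogn, a small proteoglycan, at -0.64 ± 0.10 log2 and Fbln1 at -0.81 ± 0.15 log2, Fbln1 with adjusted p up to 0.0543 when an array was left out. Ccn2, the matricellular TGFb target of the same family, read 15.81 and 15.76 log2 in TGFb 24 h cells, against 15.62 and 15.69 in untreated cells and did not pass (0.13 ± 0.07 log2, adjusted p = 0.287). Has2, a hyaluronan synthase, was the member called higher, at 12.27 and 12.43 log2 in TGFb 24 h cells, against 11.13 and 11.19 in untreated cells (1.19 ± 0.16 log2, adjusted p = 0.000485).

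Matrix proteases and inhibitors were called higher in 4 and lower in 4 of 26 cases, against 3.1% and 5.51% of all genes. Mmp9, a gelatinase, read 10.96 and 10.80 log2 in TGFb 24 h cells, against 9.03 and 8.50 in untreated cells (2.12 ± 0.33 log2, 4.34-fold higher, adjusted p = 0.00145). The aggrecanase genes differed: Adamts4 read 10.15 and 10.29 log2 in TGFb 24 h cells, against 8.61 and 8.71 in untreated cells (1.56 ± 0.31 log2, adjusted p = 0.00692), whereas Adamts5 read 8.62 and 8.50 log2 in TGFb 24 h cells, against 11.26 and 10.79 in untreated cells (-2.47 ± 0.53 log2, adjusted p = 0.011). Adamts1 (-1.36 ± 0.33 log2), Adamts9, dim on 1 treated array, and Mmp11 (-1.01 ± 0.25 log2) were called lower. Without TGFb replicate 1 or untreated replicate 1 none of the 4 lower calls held, and 1 held without either of the other arrays. Adjusted p reached 0.107 for Adamts5, 0.151 for Adamts1, 0.348 for Adamts9, 0.173 for Mmp11 and 0.0642 for Adamts4. Adam12 (0.62 ± 0.12 log2) reached 0.0672.

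Contractile and actin cytoskeleton genes mostly did not pass, with 1 called higher and 4 lower of 34, against 3.1% and 5.51% of all genes. Acta2, smooth muscle actin, was near the top of the scale at 15.39 and 15.27 log2 in TGFb 24 h cells, against 15.46 and 15.47 in untreated cells and did not pass (-0.14 ± 0.08 log2, adjusted p = 0.362). Its 2 probe sets ranged from -0.62 to -0.14 log2. Csrp2, a LIM protein of smooth muscle, read 13.05 and 13.07 log2 in TGFb 24 h cells, against 11.99 and 11.79 in untreated cells (1.17 ± 0.14 log2, adjusted p = 0.000233). Mylk, myosin light chain kinase, read 7.56 and 7.91 log2 in TGFb 24 h cells, against 9.60 and 10.05 in untreated cells (-2.09 ± 0.44 log2, adjusted p = 0.00945, and up to 0.0946 with an array left out). Myh10, a nonmuscle myosin heavy chain, changed by -0.71 ± 0.10 log2 and the calponin gene Cnn2 by -0.33 ± 0.06 log2. Lpp, a focal adhesion protein, changed by -0.56 ± 0.11 log2 in the brightest of its 7 probe sets, which ranged from -1.40 to -0.23 log2. Lpp was not called in every fit that left out an array. Integrin subunits were called higher in 1 and lower in 3 of 12 cases, against the same shares of all genes. Itga8 read 5.57 and 6.80 log2 in TGFb 24 h cells, against 8.63 and 9.42 in untreated cells, a change of -2.84 ± 0.42 log2 (adjusted p = 0.00104). Itgb8, a subunit of an integrin that activates latent TGFb, was at least 2-fold lower (adjusted p = 0.00232). Itga5, the fibronectin receptor subunit, was higher by 0.72 ± 0.14 log2 in the brightest of its 4 probe sets, which ranged from 0.12 to 0.94 log2. Itga4 was lower, at -0.81 ± 0.20 log2. With an array left out Itga5 stood at 0.61 to 0.83 log2 and Itga4 at -0.89 to -0.72 log2, and neither was called in every such fit. Among 21 cadherin and adhesion genes Cdh6, Cdh10 (1.08 ± 0.17 log2) and plakoglobin, Jup (0.72 ± 0.12 log2), were higher, and Cdh3, P-cadherin, lower (-1.02 ± 0.26 log2, adjusted p up to 0.25).

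All 30 measured mitosis genes were called lower, with a median of -0.97 log2 and a range from -1.30 to -0.60, against 5.51% of all genes called lower. Bub1b, a spindle checkpoint kinase, read 7.15 and 7.13 log2 in TGFb 24 h cells, against 8.58 and 8.30 in untreated cells (-1.30 ± 0.16 log2, adjusted p = 0.000233). Anln, the scaffold of the contractile ring, read 10.67 and 10.60 log2 in TGFb 24 h cells, against 11.76 and 11.72 in untreated cells (-1.10 ± 0.11 log2, adjusted p = 5.61e-05). Ccnb2, a mitotic cyclin, read 9.32 and 9.28 log2 in TGFb 24 h cells, against 10.52 and 10.30 in untreated cells (-1.10 ± 0.12 log2, adjusted p = 8.97e-05). The 2 arrays of each group lay close together and the groups were about 1 log2 apart. Kif11, the motor that separates spindle poles, was lower, at -1.12 ± 0.19 log2, the kinase Plk1 at -0.92 ± 0.16 log2, the proliferation marker Mki67 at -1.01 ± 0.18 log2 and Top2a, topoisomerase II, at -0.75 ± 0.12 log2. Without 1 array 28 (TGFb replicate 1), 22 (TGFb replicate 2), 19 (untreated replicate 1) and 29 (untreated replicate 2) of the 30 stayed called lower. Cdc25c, which activates CDK1 (-1.17 ± 0.28 log2), reached adjusted p = 0.211, Cenpf, a kinetochore protein (-1.16 ± 0.24 log2), 0.109, and Foxm1, a transcription factor of mitotic genes (-0.87 ± 0.23 log2), 0.271. Against the same untreated arrays, 11 of the 30 were called lower at 4 h and 1 higher (median -0.18 log2), against 17.5% of all genes called lower and 20.1% called higher. The list's median was -0.76 log2 in wt cells and -0.80 log2 in heterozygous cells at 24 h.

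Promoters of these genes share letters. The letters belong to the listed genes under any treatment, so they do not test why the genes were lower. In human and mouse cells many mitotic genes are repressed outside division by the DREAM complex through a cell cycle homology region, TTTGAA, near the start, often with CCAAT boxes upstream. Of 30 mitosis genes 24 had an entry among the RefSeq promoters of GRCm38.p6, which run from 250 bases before to 50 after the start, 25 promoters in all. TTTGAA, on either strand, stood in 19 of these 25 (76.0%), against 11.8% of the promoters of all genes tested, 21.4% of those of genes called lower and 10.3% of those of genes called higher. CCAAT stood in 72.0% of them and in 37.7% of those of all genes tested. The matches in mitosis promoters clustered at the start: 18 of 24 (75.0%) lay within 50 bases of it, against 24.6% of matches in all genes tested. A match is a description of the letters and no measured site. The windows below are shown because they hold the shared letters in genes that were lower together, with every match in capitals (TTCAAA is TTTGAA on the other strand). The first match of each window began between -19 and 30 bases from the transcript start, except in Mki67, where it began at -98. Coordinates are those of GRCm38.p6, and sequences run along the strand of the gene.
Cenpf (chr1:189688067-189688096, minus strand): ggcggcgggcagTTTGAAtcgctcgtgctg
Kif11 (chr19:37376351-37376380, plus strand): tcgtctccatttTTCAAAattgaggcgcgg
Anln (chr9:22389168-22389197, minus strand): ggggcgctgaaaTTCAAAtTTTGAAcggcc
Ccnb2 (chr9:70421533-70421562, minus strand): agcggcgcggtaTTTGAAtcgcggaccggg
Kif23 (chr9:61946780-61946809, minus strand): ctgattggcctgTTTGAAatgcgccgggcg
Mki67 (chr7:135716460-135716489, minus strand): ccgccgttttggTTTGAAtcgggcgggctg
Ttk (chr9:83834684-83834713, plus strand): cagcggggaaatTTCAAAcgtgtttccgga
Plk1 (chr7:122159453-122159482, plus strand): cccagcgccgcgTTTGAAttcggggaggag

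Ccnb2 is shown in full because it holds TTTGAA and CCAAT together, in capitals, over 300 bases (GRCm38.p6, chr9:70421505-70421804, minus strand).
Ccnb2: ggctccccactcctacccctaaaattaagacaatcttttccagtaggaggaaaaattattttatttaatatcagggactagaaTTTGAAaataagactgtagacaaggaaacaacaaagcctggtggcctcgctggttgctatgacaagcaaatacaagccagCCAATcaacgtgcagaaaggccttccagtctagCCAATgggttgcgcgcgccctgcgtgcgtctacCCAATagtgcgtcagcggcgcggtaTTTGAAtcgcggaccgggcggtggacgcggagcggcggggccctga

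**Figure D3:**
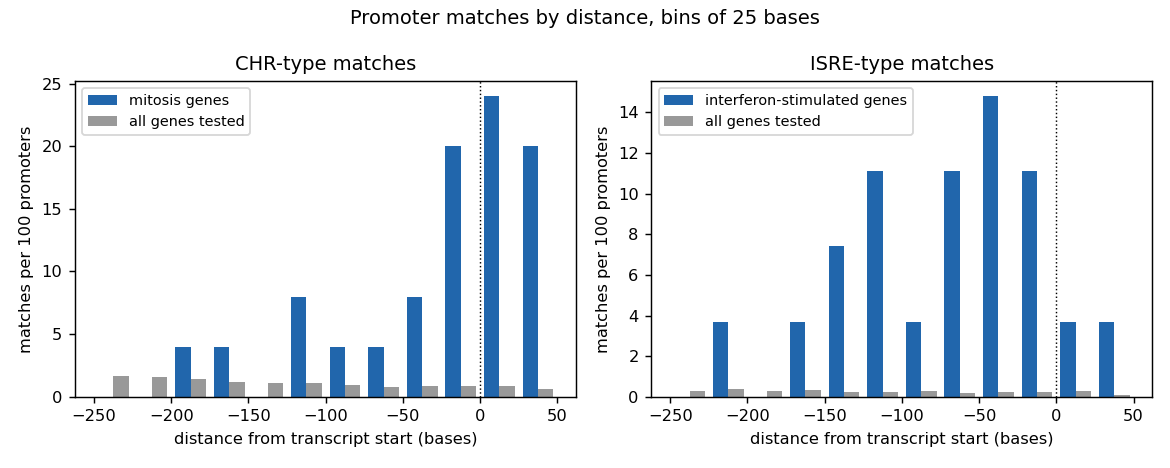
Rate of matches over promoters by distance from the transcript start, in bins of 25 bases, for the cell cycle homology letters (left, mitosis genes in blue) and the interferon response letters (right, interferon-stimulated genes in blue), with all genes tested in grey. The blue bars on the left are tallest around the start, and the grey bars stay low on both sides.

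Of 31 measured genes of DNA replication 7 were called lower and 0 higher, with a median of -0.34 log2, and without 1 array 3 (TGFb replicate 1), 1 (TGFb replicate 2), 1 (untreated replicate 1) and 6 (untreated replicate 2) were lower. With all arrays 5.51% of all genes were called lower and 3.1% higher. Tk1, thymidine kinase, read 7.87 and 7.71 log2 in TGFb 24 h cells, against 9.51 and 9.14 in untreated cells (-1.53 ± 0.22 log2, adjusted p = 0.000907). Uhrf1, which maintains DNA methylation, was lower, at -0.95 ± 0.18 log2, Gins2 of the replicative helicase at -0.79 ± 0.19, the licensing factor Cdc6 at -0.62 ± 0.16 and the primase Prim1 at -0.54 ± 0.14 log2. Their adjusted p reached 0.071, 0.223, 0.339 and 0.251 with an array left out. CDK inhibitors did not move together: Cdkn2b, which encodes p15, was higher by 0.64 ± 0.12 log2, Cdkn2c, which encodes p18, lower at 5.90 and 6.06 log2 in TGFb 24 h cells, against 6.95 and 7.43 in untreated cells (-1.21 ± 0.21 log2, adjusted p = 0.0027), and Cdkn1a, which encodes p21, stood at 0.12 ± 0.10 log2 and did not pass. Pmaip1, a proapoptotic BH3 protein, was higher by 1.02 ± 0.20 log2 (adjusted p up to 0.0515) and Gadd45b, a stress sensor and TGFb target, by 0.71 ± 0.14 log2 (up to 0.0881).

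Interferon-stimulated genes had the lowest median of the 27 lists, -1.61 log2. Of 24 measured 11 were called lower and 0 higher, against 5.51% of all genes called lower and 3.1% higher. These genes serve antiviral defence and are switched on by interferons. Ifit1, which binds viral RNA, read 2.16 and 2.06 log2 in TGFb 24 h cells, against 7.06 and 6.79 in untreated cells, at least 3.8-fold lower (adjusted p = 0.00269). Gbp2, a guanylate-binding protein, read 5.82 and 6.41 log2 in TGFb 24 h cells, against 8.65 and 8.87 in untreated cells (-2.65 ± 0.34 log2, adjusted p = 0.000377), and Ifit2 6.76 and 7.19 log2 in TGFb 24 h cells, against 8.36 and 8.38 in untreated cells (-1.40 ± 0.25 log2, adjusted p = 0.00309). Rtp4 read 6.74 and 7.61 log2 in TGFb 24 h cells, against 10.63 and 10.80 in untreated cells (-3.54 ± 0.83 log2). Irgm2 and Igtp, immunity-related GTPases, were at least 5.28-fold and at least 1.84-fold lower. Genes of transcription factors that act in interferon signalling were called lower: Irf9 read 7.89 and 8.15 log2 in TGFb 24 h cells, against 9.47 and 9.62 in untreated cells (-1.52 ± 0.39 log2, adjusted p = 0.0295) and Stat2 5.06 and 4.92 log2 in TGFb 24 h cells, against 6.80 and 7.04 in untreated cells (adjusted p = 0.0213). On these arrays no treated value reached an untreated one, and the groups did not overlap for 21 of the 24, against 64.9% of all genes. Leaving out an array removed most of these calls: without TGFb replicate 1, TGFb replicate 2, untreated replicate 1 and untreated replicate 2 there were 3, 3, 4 and 3. Adjusted p reached 0.151 for Rtp4, 0.138 for Irgm2, 0.128 for Igtp, 0.189 for Irf9, 0.144 for Stat2, 0.17 for Gbp3, 0.178 for Ifih1 and 0.137 for Ddx58. With the 3 homozygous groups fitted alone 20 of the 24 were lower, as were 1347 of all 10078 genes. Usp18, which shuts off interferon signalling, read 5.86 and 4.73 log2 in TGFb 24 h cells, against 9.30 and 9.53 in untreated cells and Oasl2 5.10 and 5.09 log2 in TGFb 24 h cells, against 8.14 and 8.23 in untreated cells, and neither passed (adjusted p = 0.0793 and 0.0867). Irf1 stood at -0.12 ± 0.14 log2. The macrophage marker sums given above were lower in the treated cells too, but the 16 markers did not move alike, with 15 not called. Their changes ran from -2.72 to 0.31 log2 (median -0.31). Lyz2 read 11.17 and 11.30 log2 in TGFb 24 h cells, against 11.88 and 11.96 in untreated cells. Csf1r read 9.85 and 10.01 log2, against 9.90 and 10.01. The part of macrophages in the interferon result was not tested. The list's median was -1.32 log2 at 4 h, and -1.15 log2 in wt and -1.52 log2 in heterozygous cells at 24 h. Untreated wt replicates 1 and 2 lay far apart for some members. They read 10.14 and 7.135 log2 for Rtp4, 7.197 and 4.303 for Irgm2 and 6.134 and 3.721 for Igtp. For Gbp2 they were closer, at 8.357 and 7.631 log2. Their macrophage marker sums were 5301 and 2209. How far the wt median rests on untreated wt replicate 1 was not tested.

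Promoters of the interferon-stimulated genes were searched for a pair of GAAA separated by 2 bases, on either strand, the core of the interferon-stimulated response element. It stood in 14 of 27 promoters of the 22 genes with an entry (51.9%), in 8 of 13 promoters of those called lower (61.5%) and in 2.93% of the promoters of all genes tested. The windows are shown because they carry this pair of repeats in genes that were lower, with the matches in capitals and some read from the other strand, as a pair of TTTC.
Ifit1 (chr19:34640794-34640823, plus strand): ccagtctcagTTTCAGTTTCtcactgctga
Irgm2 (chr11:58214903-58214932, plus strand): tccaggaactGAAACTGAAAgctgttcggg
Igtp (chr11:58199512-58199541, plus strand): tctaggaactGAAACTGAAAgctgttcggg
Gbp2 (chr3:142620594-142620623, plus strand): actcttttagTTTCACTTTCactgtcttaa
Gbp3 (chr3:142559995-142560024, plus strand): acagTTTCAGTTTCTATTTCccagatccct
Stat2 (chr10:128270266-128270295, plus strand): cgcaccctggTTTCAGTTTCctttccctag

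Immediate early genes, which respond to growth factors within an hour, were called lower in 7 of 26 cases and higher in 2. The shares over all genes were 5.51% and 3.1%. Egr1 read 10.30 and 10.36 log2 in TGFb 24 h cells, against 11.88 and 11.75 in untreated cells (-1.48 ± 0.12 log2, adjusted p = 1.56e-05). Fos, a subunit of AP-1, read 8.21 and 8.22 log2 in TGFb 24 h cells, against 9.84 and 9.75 in untreated cells (-1.58 ± 0.15 log2, adjusted p = 4.76e-05). Nr4a1, an orphan nuclear receptor, read 7.69 and 7.86 log2 in TGFb 24 h cells, against 9.73 and 9.92 in untreated cells (-2.05 ± 0.19 log2, adjusted p = 3.4e-05). In all 3 the treated arrays agreed closely and lay more than 1 log2 below the untreated ones. Egr2, of the same zinc finger family as Egr1, was higher at 12.32 and 12.39 log2 in TGFb 24 h cells, against 10.75 and 10.63 in untreated cells (1.66 ± 0.31 log2, adjusted p = 0.00411), while Egr3 was called lower with 1 treated array dim (adjusted p = 0.0143). Klf2 (-1.01 ± 0.22 log2), Klf4 (-0.63 ± 0.14 log2) and Fosl2 (-0.75 ± 0.15 log2) were lower and Dusp6, a phosphatase of ERK, higher (0.47 ± 0.10 log2). With an array left out adjusted p reached 0.17 for Egr3, 0.14 for Klf2, 0.17 for Klf4, 0.0971 for Fosl2 and 0.119 for Dusp6, and 3 to 6 of the list were lower. At 4 h the picture was different: 17 of the 26 were called higher than in untreated cells and 1 lower (median 1.17 log2), against 20.1% and 17.5% of all genes. Between the times 23 were called lower at 24 h than at 4 h and 0 higher, against 22% and 14.9% of all genes.

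Genes of retinoic acid, the vitamin A derivative that signals through nuclear receptors, were called higher in 5 and lower in 1 of 12 cases. The shares over all genes were 3.1% and 5.51%. Aldh1a2 and Aldh1a3 make retinoic acid. Aldh1a2 read 10.65 and 10.21 log2 in TGFb 24 h cells, against 9.07 and 8.56 in untreated cells (1.61 ± 0.26 log2, adjusted p = 0.00182) and Aldh1a3 9.16 and 9.04 log2 in TGFb 24 h cells, against 7.01 and 6.42 in untreated cells (2.39 ± 0.64 log2, adjusted p = 0.0355), and its 3 probe sets ranged down to 0.54 log2. Rarb, a receptor that is itself a target of retinoic acid, read 7.39 and 7.40 log2 in TGFb 24 h cells, against 6.30 and 5.93 in untreated cells (1.28 ± 0.25 log2, adjusted p = 0.00633). Crabp2, which carries retinoic acid to the nucleus, read 11.27 and 11.68 log2 in TGFb 24 h cells, against 10.09 and 10.21 in untreated cells (1.33 ± 0.26 log2), and Crabp1, the other binding protein, 8.35 and 8.04 log2 in TGFb 24 h cells, against 9.40 and 9.24 in untreated cells (-1.13 ± 0.21 log2). The binding proteins thus moved in opposite directions. Dhrs3, which turns retinaldehyde back to retinol, was called higher by 0.71 ± 0.19 log2. Only Aldh1a2 stayed called whichever array was left out. Adjusted p reached 0.222 for Aldh1a3, 0.0846 for Rarb, 0.0794 for Crabp2, 0.0628 for Crabp1 and 0.222 for Dhrs3, and the number higher was 3 without TGFb replicate 1, 1 without TGFb replicate 2, 2 without untreated replicate 1 and 2 without untreated replicate 2.

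Wnt and hedgehog genes were called higher in 3 and lower in 5 of 26 cases, against 3.1% and 5.51% of all genes. In the Wnt pathway the ligand genes Wnt9a and Wnt11 were higher. Wnt9a read 10.25 and 10.18 log2 in TGFb 24 h cells, against 8.18 and 8.48 in untreated cells (1.88 ± 0.13 log2, adjusted p = 5.59e-06) and Wnt11 8.21 and 8.44 log2 in TGFb 24 h cells, against 6.79 and 6.78 in untreated cells (1.54 ± 0.25 log2, adjusted p = 0.00156). Lgr6, a receptor for R-spondins, read 8.79 and 8.89 log2 in TGFb 24 h cells, against 6.73 and 6.50 in untreated cells (2.23 ± 0.28 log2, adjusted p = 0.0002998), whereas the R-spondin gene Rspo2 was among the largest falls. Of hedgehog genes Gas1, a co-receptor, read 9.61 and 9.48 log2 in TGFb 24 h cells, against 11.26 and 11.09 in untreated cells (-1.64 ± 0.34 log2, adjusted p = 0.00794), and the receptor Ptch1 (-0.81 ± 0.21 log2) and the transcription factor Gli2 (-0.82 ± 0.22 log2) were called lower, as was the Wnt receptor Fzd1 (-0.70 ± 0.16 log2). With an array left out adjusted p reached 0.075 for Gas1, 0.201 for Ptch1, 0.256 for Gli2 and 0.161 for Fzd1, and 2 of the list were lower.

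Transcription factors of limb and mesenchyme progenitors were called lower in 6 of 26 cases and higher in 1, with 4 to 5 lower when an array was left out. With all arrays 5.51% of all genes were called lower and 3.1% higher. Osr1, a marker of early connective tissue, read 6.10 and 6.39 log2 in TGFb 24 h cells, against 8.17 and 8.61 in untreated cells (-2.15 ± 0.33 log2, adjusted p = 0.00112). Foxd1 read 10.80 and 10.68 log2 in TGFb 24 h cells, against 11.89 and 11.89 in untreated cells (-1.15 ± 0.14 log2, adjusted p = 0.000213), Prrx1, a homeobox gene of limb mesenchyme, 11.80 and 11.88 log2 in TGFb 24 h cells, against 12.78 and 12.74 in untreated cells (-0.92 ± 0.11 log2, adjusted p = 0.00022) and Twist1 9.31 and 9.49 log2 in TGFb 24 h cells, against 10.12 and 10.14 in untreated cells (-0.73 ± 0.12 log2, adjusted p = 0.00182). In each of them the 2 arrays of a group lay close together. Eya1, a transcriptional cofactor, was at least 2.19-fold lower and Meox1, a homeobox gene of fibroblast activation in mouse heart, higher by 1.85 ± 0.45 log2, with adjusted p up to 0.222 and 0.172 when an array was left out. Foxc1 (-0.63 ± 0.18 log2) reached 0.211. Prrx1 and Twist1 were also the members called among 12 transcription factors of epithelial-mesenchymal transition, with 0 called higher.

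Genes of fat cells and fatty acid handling were called lower in 7 and higher in 1 of 18 cases. The shares over all genes were 5.51% and 3.1%. Lpl, lipoprotein lipase, read 5.58 and 5.30 log2 in TGFb 24 h cells, against 7.32 and 7.08 in untreated cells (-1.76 ± 0.16 log2, adjusted p = 2.91e-05). Fabp4, a fatty acid carrier, read 6.47 and 6.28 log2 in TGFb 24 h cells, against 8.34 and 8.09 in untreated cells (-1.84 ± 0.39 log2) and Cd36, a fatty acid receptor, 6.95 and 6.78 log2 in TGFb 24 h cells, against 8.51 and 8.65 in untreated cells (-1.72 ± 0.38 log2). Pdk4, which blocks the use of pyruvate, was lower, at -1.73 ± 0.39 log2, Acadm of fatty acid oxidation at -0.63 ± 0.11 log2, Cebpd at -0.72 ± 0.19 log2 and Fabp5 at -0.46 ± 0.11 log2. Plin2, a coat protein of lipid droplets, was higher at 13.37 and 13.38 log2 in TGFb 24 h cells, against 12.47 and 12.57 in untreated cells (0.86 ± 0.10 log2, adjusted p = 0.000258). Pparg, the transcription factor of fat cells, was dim on all 4 arrays. Lpl, Acadm and Plin2 stayed called whichever array was left out, while adjusted p reached 0.0935 for Fabp4, 0.094 for Cd36, 0.161 for Pdk4, 0.307 for Cebpd and 0.196 for Fabp5. The number lower was 2 (without TGFb replicate 1), 4 (TGFb replicate 2), 3 (untreated replicate 1) and 3 (untreated replicate 2).

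Between 4 h and 24 h 3722 genes were called different in homozygous cells (36.9%), 1506 higher at 24 h (14.9%) and 2216 lower (22%). Without 1 array the number was 2054 to 2422, the lowest without replicate 1 of the 4 h cells. This comparison shares its 24 h arrays with the one against untreated cells. Lgr6 read 8.79 and 8.89 log2 at 24 h, against 6.32 and 6.20 at 4 h, a difference of 2.58 ± 0.28 log2 (adjusted p = 6.07e-05). Nox4, an oxidase that makes hydrogen peroxide, read 11.65 and 11.63 log2 at 24 h, against 9.07 and 9.29 at 4 h (2.46 ± 0.16 log2, adjusted p = 3.86e-06). Rarb read 7.39 and 7.40 log2 at 24 h, against 3.33 and 4.05 at 4 h, at least 5.27-fold higher at 24 h, and Cnr1 7.32 and 7.37 log2 at 24 h, against 3.57 and 3.66 at 4 h, at least 5.07-fold higher. Dbp, a clock-controlled transcription factor, read 7.63 and 8.08 log2 at 24 h, against 5.73 and 5.43 at 4 h (2.27 ± 0.41 log2, adjusted p = 0.00136), and at 24 h it did not differ from untreated cells beyond the error (0.24 ± 0.41 log2). Most of the largest differences downward were those of genes that had risen at 4 h. Sema7a, a membrane-anchored semaphorin, read 5.94 and 6.70 log2 at 24 h, against 10.24 and 10.59 at 4 h (-4.10 ± 0.45 log2), and Nppb, the natriuretic peptide BNP, 5.13 and 5.06 log2 at 24 h, against 8.90 and 8.59 at 4 h (-3.65 ± 0.39 log2). Against untreated cells, at 24 h Nppb stood at -0.19 ± 0.39 and Sema7a at 1.07 ± 0.45 log2, neither called. Hivep3 and Ecrg4 also lay below their 4 h level, with 1 of their 24 h arrays dim (adjusted p = 3.7e-05 and 0.0143). Ecrg4 was not called at 4 h against untreated cells (0.74 ± 1.01 log2, adjusted p = 0.598). Ccn3 too was unlike Sema7a, Nppb and Hivep3, since it read 4.50 and 4.71 log2 at 24 h, against 8.73 and 8.60 at 4 h. It lay near its untreated level at 4 h. Il11 and Lif read 11.82 and 11.73 and 11.25 and 11.48 log2 at 4 h, above their 24 h levels, as the plot by time shows.

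The 24 h response of homozygous cells was set against that of wt and heterozygous cells, which rest on other arrays. As an interaction 0 of 10078 genes were called for homozygous minus wt (0%, smallest adjusted p = 0.7895, 577 genes or 5.73% with an unadjusted p under 0.05) and 0 for homozygous minus heterozygous (0%, smallest adjusted p = 1, 74 genes or 0.734%). The same test called 1175 genes in wt cells (11.7%, with 4.51% higher and 7.14% lower) and 712 in heterozygous cells (7.06%, with 2.95% higher and 4.12% lower). For homozygous minus heterozygous, 0.734% is less than an unadjusted threshold of 0.05 would pass without any difference. The pooled errors include the wt pairs, at 0.321 to 0.387 log2, against 0.183 to 0.222 log2 in the pairs of both mutant genotypes. The test was thus strict there, and its 0 calls do not show alike responses. With only the 12 mutant arrays fitted 0 were called as well. Over all genes the homozygous response correlated with the wt response at r = 0.80 and with the heterozygous response at r = 0.90, as a description over genes, which are not independent replicates. Of the 312 genes called higher in homozygous cells 304 were higher on average in wt and 312 in heterozygous cells. Of the 555 called lower, 547 were lower in wt and 551 in heterozygous cells. Their median change was 0.78 log2 in homozygous and 0.75 log2 in wt cells for the higher genes, and -0.89 and -0.74 log2 for the lower genes. These genes were chosen in the homozygous arrays, which favours a larger size there.

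Single genes differed by more than that, but none passed over all genes. Il11 rose by 3.21 ± 0.28 log2 in homozygous cells, against 2.07 ± 0.28 in wt cells and 2.30 ± 0.28 in heterozygous cells. The difference from wt was 1.14 ± 0.39 log2 (unadjusted p = 0.012, adjusted p = 0.824). Endod1, a putative endonuclease, had the smallest p of the interaction with wt: it changed by 0.75 ± 0.12 log2 in homozygous and 1.64 ± 0.12 in wt cells, a difference of -0.88 ± 0.17 log2 (adjusted p = 0.789). Serpinb9b, a serine protease inhibitor, differed by 1.18 ± 0.23, Insig2, a sterol sensor of the endoplasmic reticulum, by 0.69 ± 0.15 and Plagl2, a zinc finger factor, by -0.98 ± 0.21 log2, with the same adjusted p. Pif1, a DNA helicase, was dim on both TGFb 24 h arrays of homozygous cells, at 4.31 and 3.89 log2 in TGFb 24 h cells, against 5.83 and 5.81 in untreated cells, and at least 1.76-fold lower there, so its interactions have no size. Against heterozygous cells Wnt9a differed by -0.71 ± 0.18 log2, Pdp1, a phosphatase of pyruvate dehydrogenase, by -0.70 ± 0.20, the homeobox gene Mkx by -1.46 ± 0.44 and Igdcc4 by -0.41 ± 0.12 log2, all with adjusted p = 1. A p that misses the threshold does not show that the genotypes respond alike.

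**Figure D4:**
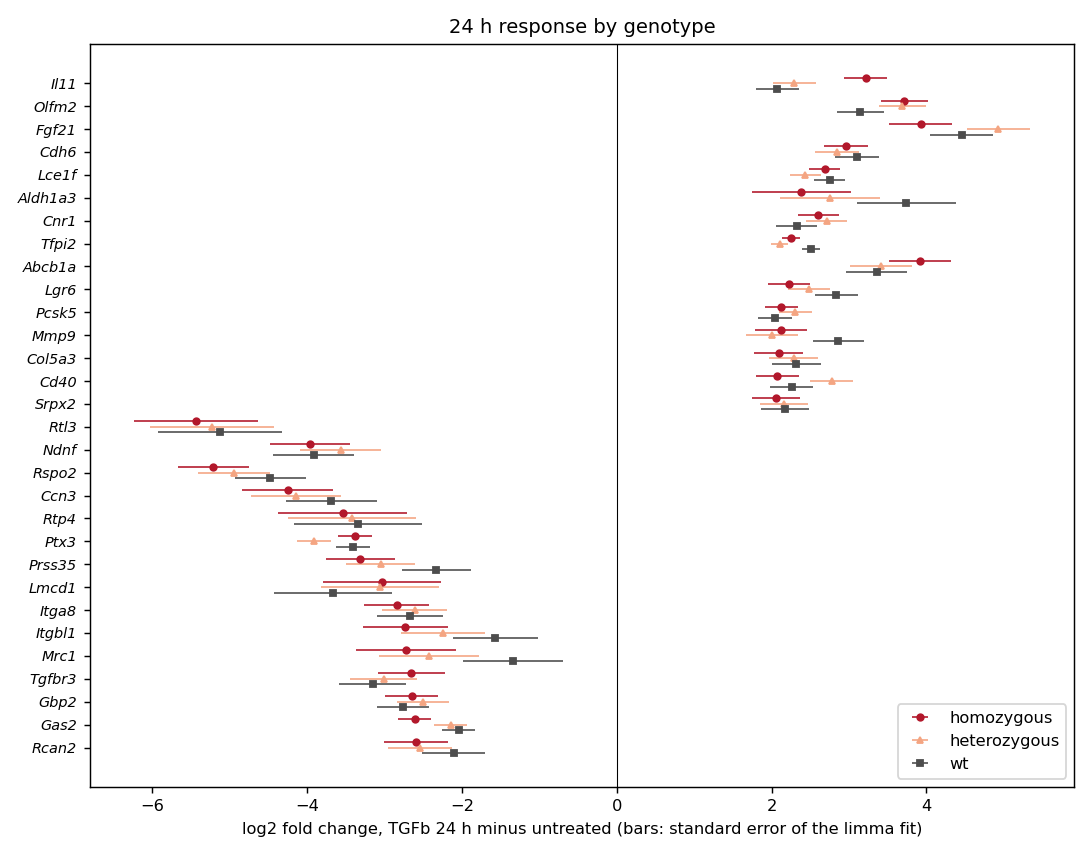
Log2 fold change after 24 h of TGFb with its standard error for the 15 largest rises and 15 largest falls of homozygous fibroblasts, in homozygous (circles), heterozygous (triangles) and wt cells (squares). All 30 genes lie on the same side of 0 in the 3 genotypes, and fitted values of genes that are dim in a group are shown although their size is only a bound.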

How the data were processed

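RNA of 18 samples was hybridised to Affymetrix arrays, 2 for each of 9 groups taken from the titles. The authors deposited GCRMA intensities on a linear scale, 1 value for each probe set, per the submitters' processing notes, which state no version. The deposited intensities were turned into log2 values here, with no further normalization. Of 45101 probe sets 64 are controls, 34945 have a single gene symbol, 932 several and 9160 none, and 34741 of the single symbols matched RefSeq. For each gene the brightest single-symbol probe set was kept, and it was tested if it reached log2 5 in at least 2 arrays, which left 10078 genes.

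Tests used R 4.3.3 and limma 3.58.1, with a mean for each group over 18 arrays, 9 residual and 3.78 median prior degrees of freedom, an intensity trend and Benjamini-Hochberg adjustment at 0.05. Interactions are contrasts of the same fit. Replicate numbers do not pair arrays by any label. The fit was tested on simulated data. The number of arrays limits the precision, and no scan date was given in the sources used here.

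Members, lists and tests were chosen with earlier results of these data known. Named are the 15 largest rises and falls among called genes whose arrays do not overlap, up to 5 called members of each list and further members that a sentence on roles needs, the 5 largest changes against 4 h each way, the 5 smallest p of each interaction, because none was called, and 9 measured key genes. Predicted genes are left unnamed. Promoters come from the RefSeq table of GRCm38.p6, which is not complete. Alternatives changed the filter, the probe sets, the normalization, the offset, the trend, the weights, the arrays fitted, the replicate block and the sex class, and each array was left out in turn.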

Additional observations from a re-analysis of the deposited data

Results flagged for a closer look

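For 3 of the 225 named genes every TGFb 24 h array moved one way from every untreated array in homozygous cells and the opposite way in wt cells. In Plagl2 homozygous cells read 8.13 and 7.86 log2 in TGFb 24 h cells, against 8.18 and 8.17 in untreated cells, while wt cells read 8.44 and 8.23 with TGFb and 7.40 and 7.68 untreated. The response of homozygous minus wt cells was -0.98 ± 0.21 log2. In Fzd1 homozygous cells read 10.44 and 10.68 log2 in TGFb 24 h cells, against 11.16 and 11.36 in untreated cells, and the difference in response from wt was -0.83 ± 0.23 log2. In Igf1r homozygous cells read 10.26 and 10.22 log2 in TGFb 24 h cells, against 10.69 and 10.77 in untreated cells, with a difference of -0.67 ± 0.15 log2. The interaction test did not pass for any of them (adjusted p = 0.789, 0.824 and 0.789). Plagl2 was named for its small interaction p, so the choice favoured its difference. The share of such genes over all genes tested was not counted. In homozygous cells alone the groups did not overlap for 64.9% of genes. With 2 arrays a group no array could be tested as standing apart from its group.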

How the results depend on the processing

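Of the named genes, 199 were called at 24 h and 0 of these changed direction under the 16 alternatives that keep all 4 arrays or when an array was left out. Of the 26 not called 6 did under at least 1 of them: Tgfbr2 (-0.22 to 0.02 log2), Smad4 (-0.11 to 0.04), Col1a1 (-0.09 to 0.03), Fn1 (-0.12 to 0.04), Insig2 (-0.07 to 0.11) and Pparg (-0.08 to 0.07). Of 225 named genes 38 lost a call under at least 1 of those 16. The counts moved most with the arrays that set the spread. In place of 867 genes called after 24 h (312 higher, 555 lower), array weights gave 2726 (1084 and 1642), only the groups compared 2037 (825 and 1212), only the 3 homozygous groups 2245 (898 and 1347) and the 12 mutant arrays, chosen after seeing the data, 1876 (736 and 1140). Interferon-stimulated genes called lower, 11 of 24, were 7 with a mean log2 of at least 6, 20 with array weights, 19 with only the groups compared, 20 with the 3 homozygous groups and 20 with the 12 mutant arrays. Between 24 h and 4 h, in place of 3722, array weights gave 5723 and the 3 homozygous groups 5676. For homozygous minus heterozygous, no filter gave 2 in place of 0. The lower residual spread of the mutant arrays moved with these counts, and the cause was not tested.

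Without 1 array 379 to 450 genes were called at 24 h (146 to 174 higher, 233 to 304 lower), 3 to 4 interferon-stimulated and 19 to 29 mitosis genes were lower, 2054 to 2422 differed from 4 h, and 0 to 4 differed in response between homozygous and wt cells, the 4 without wt replicate 1.

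The labels do not say that equal replicate numbers share an embryo or a day. Deviations of same-numbered homozygous arrays correlated at 0.596 at 24 h and untreated, and at 0.415 without genes of the X and Y chromosomes, whereas those of wt arrays correlated at -0.663. With the replicate number as a block in the homozygous arrays alone 3165 genes were called (1271 higher, 1894 lower), 23 interferon-stimulated genes were lower and 6324 genes differed from 4 h. With the replicate block within each genotype 945 were called, and 1013 with sex class as a covariate. With the block and the wt numbers crossed, added after seeing the data, homozygous and wt responses still had 0 genes called as different.

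With 2 arrays a group, changes of genes under log2 5 are bounds or have no size.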

Other observations

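Single members of several lists of metabolic and stress genes were called, beside 3.1% of all genes called higher and 5.51% lower. Of 31 measured genes of the ATF4 stress response and amino acid synthesis 2 were called higher and 1 lower (median 0.05 log2). Besides Fgf21, Nupr1, a stress-induced chromatin protein, read 14.55 and 14.67 log2 in TGFb 24 h cells, against 13.65 and 13.77 in untreated cells (0.90 ± 0.13 log2, adjusted p = 0.00106), and Psat1 of serine synthesis was called lower (-0.36 ± 0.10 log2, adjusted p up to 0.296 with an array left out). Of 22 glycolysis and hypoxia-related genes 2 were higher and 1 lower: Hk2, a hexokinase, read 11.67 and 11.70 log2 in TGFb 24 h cells, against 11.05 and 10.89 in untreated cells (0.72 ± 0.12 log2, adjusted p = 0.00206), and Adm, the vasodilator peptide adrenomedullin, 6.66 and 6.87 log2 in TGFb 24 h cells, against 9.25 and 9.41 in untreated cells (-2.56 ± 0.39 log2, adjusted p = 0.00112). Antioxidant and detoxification genes were lower in 4 and higher in 1 of 22 cases. Cbr2, a carbonyl reductase, read 2.74 and 3.27 log2 in TGFb 24 h cells, against 6.36 and 6.19 in untreated cells and was at least 2.41-fold lower, and Mgst1, a membrane glutathione transferase, read 9.36 and 9.71 log2 in TGFb 24 h cells, against 10.73 and 11.08 in untreated cells (-1.37 ± 0.19 log2, adjusted p = 0.000769). Gstm1 and Gstm2 changed by -1.10 ± 0.22 and -0.52 ± 0.12 log2 and Gpx8 by 0.26 ± 0.06 log2, with adjusted p up to 0.0799, 0.115 and 0.214 when an array was left out.

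Of 23 cholesterol synthesis and sterol sensing genes 0 were called in limma, with a median of -0.28 log2 and 5 with an unadjusted p under 0.05, and 12 to 17 were called lower in fits to homozygous arrays alone. Those fits called more of all 10078 genes lower too, in place of 555. The number was 1212 with only the groups compared, 1347 with the 3 homozygous groups and 1894 with the replicate block. Of 14 genes of insulin-like growth factor binding and secreted modulators 0 were called, 0 with an unadjusted p under 0.05. Igf1 itself stood at -1.37 ± 0.40 log2, just outside the threshold (adjusted p = 0.0508). Smad box letters CAGACA stood in 22.7% of promoters of genes called higher, 18.6% of those called lower and 15.5% of those of all genes tested, and the AP-1 letters TGANTCA in 7.88%, 5.54% and 5.04%.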
